A study of Rattus norvegicus with 2 samples.

Results

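The probes described here were those whose signal in saline-treated rats was stronger in the ventral prostate than in the lateral one. They numbered 125 of the 20174 gene probes on the array. RNA came from prostate cancer tissue of male TRAP rats, which carry the SV40 T antigen as a transgene behind the probasin promoter, a promoter active in prostate epithelium. From 6 weeks of age the rats received intravenous OBP-801, an inhibitor of histone deacetylases, or saline, 2 times a week for 8 weeks. The dose of OBP-801 was 1 mg/kg in the treatment protocol, while other labels give 1 mg without a body weight. All rats, treated or not, carried the transgene and were fed a control diet. There were 2 two-colour arrays, 1 for the ventral and 1 for the lateral lobe. On each, OBP-801 RNA was labelled with Cy3 and saline RNA with Cy5. The sources used here do not state how many rats gave each RNA or whether rats were pooled.

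Each lobe had 1 array, so no comparison below carries a test across animals, and this number of arrays limits the precision. Array and lobe cannot be told apart, nor can dye and treatment, since no array with exchanged dyes was analysed. In whole tissue, fewer cells of a type and less RNA per cell cannot be told apart either. The probes are named by Ensembl rat gene ID, and none of these IDs could be paired with a gene symbol from the files or from the reference table used here. The lobes were therefore not checked against marker genes, and no gene function is given for any probe. Only 4 probes are given by ID, the 2 with the highest and the 2 with the lowest ratio of OBP-801 over saline averaged over both lobes.

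As background, the rat prostate consists of paired lobes that differ in secretion. The ventral lobe depends strongly on androgen and secretes large amounts of a steroid-binding protein, and the lateral lobe is known for its high content of zinc. Histone deacetylases take acetyl groups off histones, which tends to compact chromatin. Their inhibition can raise the transcription of some genes and lower that of others.

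A probe was counted as ventral-enriched when its ventral net signal in saline RNA was at least 2-fold above its lateral one and reached at least 100 units. The net signal is the spot intensity less the mean of the blank spots, in arbitrary scanner units. The lobe difference is the log2 net signal of the ventral less that of the lateral prostate, shifted so that the median of 9013 probes with at least 30 units in all 4 channels was 0. The 125 probes made 1.93% of the 6479 probes with at least 100 units in ventral saline RNA, which are the probes used for comparison below. The probes were thus chosen by their saline values, and their saline lobe difference is a description. Each gene ID has 1 probe.

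In saline RNA the ventral-enriched probes had a lower median signal than the comparison probes, which also had at least 100 ventral units. Their net signal had a median of 194 units in the ventral prostate, within a range of 101 to 7463 units. In the lateral prostate the median was 73.4 units, within a range of 16.1 to 2603 units. All 125 probes exceeded the blank mean by over 10 blank SDs in saline RNA of both lobes, so no lobe difference was computed against a signal at background. Over the 6479 comparison probes the median was 336 units in the ventral and 317 units in the lateral prostate. None of the 125 was among the 100 brightest probes of any channel. Together they held 1.14% of the summed net signal of all gene probes in ventral saline RNA, against 0.420% in lateral saline RNA. No spot of these probes carried a scanner flag.

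The median lobe difference of the 125 probes in saline RNA was 1.35 on the log2 scale, or 2.55-fold. The difference was at least 3-fold for 34 probes and at least 4-fold for 15. The middle of the distribution lay close to the limit, with quartiles of 1.13 and 1.62. The probe with the largest difference had 126 units in the ventral and 16.1 units in the lateral lobe, a 7.36-fold difference. The probe with the next largest had 110 and 16.4 units, 6.34-fold. The next had 428 units in the ventral and 69.4 units in the lateral prostate, 5.84-fold, and was the first of these with a ventral signal well over the 100-unit limit. Among the 10 most enriched probes only 1 was brighter than that, at 836 units for the ventral and 158 units for the lateral lobe, so the widest differences came mostly from dim probes.

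The brightest of the ventral-enriched probes had 7463 units in the ventral and 2603 units in the lateral lobe. Its ventral signal ranked 126 among all gene probes, and it was 2.71-fold higher in the ventral lobe. The next brightest had 5657 units in the ventral and 2257 units in the lateral prostate, and the one after it 4425 and 1363 units. The lobe differences of these 3 probes were between 2.37-fold and 3.08-fold, below those of the dim probes at the top of the list. Probes with 101 to 149 units in ventral saline RNA were ventral-enriched in 3.11% of cases, and those with 150 to 194 units in 4.32%. The share was 1.45% at 203 to 491 units and 1.40% at 507 to 7463 units.

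The limit cut through a continuous distribution. The 3 probes just inside the fold limit had lobe differences of 2.00-fold, 2.01-fold and 2.02-fold, and the 3 just outside it 1.99-fold, 1.99-fold and 1.98-fold. A further 215 probes with enough signal lay between 1.5-fold and 2-fold, more than the number inside. At the signal limit, the 3 dimmest probes inside had 101, 102 and 104 units in ventral saline RNA, and the 3 brightest outside had 99.1, 97.5 and 96.6 units. A total of 255 probes met the fold limit without reaching 100 units.

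**Figure D1:**
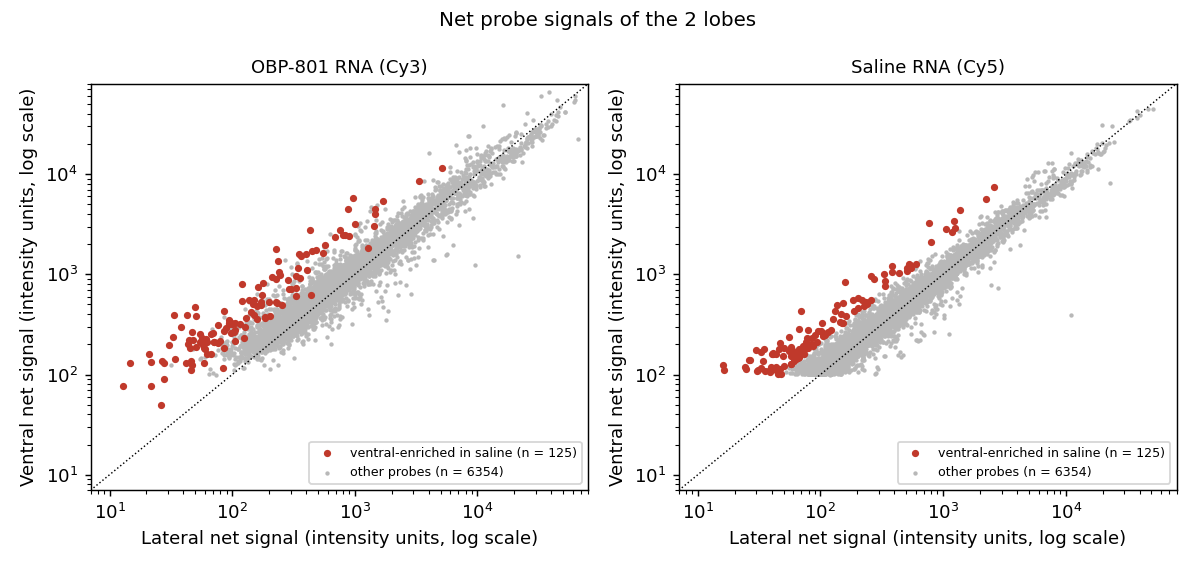
Net signal of each probe in the ventral prostate (vertical axis) against the lateral prostate (horizontal axis), in scanner units on log scales, for OBP-801 RNA (left) and saline RNA (right). Red points are the 125 ventral-enriched probes and grey points the other 6354 probes with at least 100 units in ventral saline RNA. The dotted line marks equal signals. In saline RNA the red points lie above the line by construction, and in OBP-801 RNA all 125 have a lobe difference above 0.

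OBP-801 RNA was read in the other dye and did not enter the fold limit or the signal limit, although it was hybridised to the same 2 arrays. It entered the centring only through the 30-unit minimum. In OBP-801 RNA, 107 of the 125 probes (85.6%) were again at least 2-fold higher in the ventral lobe. Of all 6479 comparison probes, 3.32% were, and of the 6354 that were not ventral-enriched in saline, 1.7%. The share depended on the background correction. With the local background subtracted, 492 probes met the rule in saline RNA, and only 66 of them were among the 125. Of the 492, 214 (43.5%) were at least 2-fold higher in OBP-801 RNA, beside 5.94% of the comparison probes under the same subtraction. Of the 125 themselves, 89 were at least 2-fold higher with it. Without that subtraction, all 125 had a lobe difference above 0 in OBP-801 RNA. It had a median of 1.52 on the log2 scale, or 2.87-fold, and ran from 1.22-fold to 10.4-fold. Over the comparison probes the median was 0.01, with an SD across probes of 0.46. A limit of 4-fold was passed by 28 of the 125 probes in OBP-801 RNA and by 15 in saline RNA. No share of the comparison probes at 4-fold is given beside these counts. A limit of 3-fold was passed by 58 of the 125 in OBP-801 RNA, beside 1.17% of the comparison probes, and by 34 in saline RNA. The comparison probes as a whole were also more widely spread in OBP-801 RNA, since their SD in saline RNA was 0.38. The part of this wider spread in the counts at 3-fold and 4-fold was not tested.

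The error of the lobe difference could be measured only on spots of 1 array pair. Over the 24 spots of each positive control, the SD of the log2 lobe difference was 0.08 and 0.09 in OBP-801 RNA and 0.14 and 0.14 in saline RNA. These controls had median net signals of 6444 to 28278 units, far above most of the 125 probes, so their SD does not give the error of dim probes. It also leaves out differences between animals, between extractions and between arrays. The mean lobe difference of the positive controls was not 0 throughout. It was -0.80 in OBP-801 RNA and -0.58 in saline RNA for one control, and 0.09 and 0.03 for the other. The part of such array differences in the lobe difference of single probes was not tested.

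Of the 18 probes that did not reach 2-fold in OBP-801 RNA, 15 lay between 1.5-fold and 2-fold. The brightest of the ventral-enriched probes was among them, with 11564 ventral and 5125 lateral units, 1.99-fold after centring. Only 3 probes were under 1.5-fold. The first had 117 units (ventral) and 84.8 units (lateral) in OBP-801 RNA, 1.22-fold, against 143 and 60.8 units in saline RNA, 2.23-fold. The second had 619 and 439 units in OBP-801 RNA, 1.25-fold, against 534 and 234 units in saline RNA, 2.16-fold. The third was the brightest of the 3, with 1838 ventral and 1281 lateral units in OBP-801 RNA, 1.27-fold, against 1061 and 387 units in saline RNA, 2.60-fold. By the choice of these 3 probes, their lateral signal in OBP-801 RNA stood closer to the ventral one than it did in saline RNA.

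At the other end, the largest lobe difference in OBP-801 RNA was 10.4-fold. This probe had 397 ventral and 33.6 lateral units in OBP-801 RNA, against 159 and 40.9 units in saline RNA, 3.68-fold. The next was 8.34-fold higher in the ventral lobe in OBP-801 RNA, with 471 ventral units, against 3.44-fold in saline RNA, with 159 ventral units. With the offset and loess, the first probe's log2 ratio with OBP-801 was 0.23 (ventral) and -0.48 (lateral), and that of the second was 0.44 and -0.33, so both probes were above 0 in the ventral and below 0 in the lateral lobe. The probe with the largest lobe difference in saline RNA kept it in OBP-801 RNA, at 7.74-fold, where it had 129 ventral and 14.8 lateral units. That lateral value is below 10 blank SDs of its channel, a limit of 28.5 units that 116 of the 125 probes passed in lateral OBP-801 RNA. The probe with the next largest saline difference did not keep it. It had 49.9 and 26.1 units in OBP-801 RNA, 1.69-fold.

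The lobe difference was larger in OBP-801 than in saline RNA for 88 of the 125 probes and smaller for 37. The median change was 0.16 on the log2 scale, with quartiles of -0.05 and 0.45. The 88 probes are 70.4% of the list. Among the 215 probes between 1.5-fold and 2-fold in saline RNA, just outside the rule, 67.4% had the larger difference in OBP-801 RNA, a share near that of the list. For the 6479 comparison probes 48.2% had the larger difference in OBP-801 RNA, with a median change of -0.01. The lobe difference was more widely spread in OBP-801 RNA over the comparison probes too, as given above. The change was at least 2-fold upward for 4 of the 125 probes and at least 2-fold downward for 2, out of 14 and 7 such comparison probes. Across the 125 probes, the lobe differences in both RNAs had a Pearson correlation of 0.627 and a Spearman correlation of 0.592, as a description of probes that share their arrays. Over the 6479 comparison probes the Pearson correlation was 0.904. The 125 were cut at the 2-fold limit in saline RNA, so the 2 values are not alike in range.

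When the same fold and signal limits were applied to OBP-801 RNA, 335 probes passed. Of these, 104 were among the 125, which is 83.2% of the saline list and 31.0% of the OBP-801 list. The same 100-unit limit was applied although net signals ran higher in Cy3, where the comparison probes had a ventral median of 710 units, against 336 units in Cy5. The mirrored rule for the lateral lobe in saline RNA gave 110 probes, of which 99 (90%) were again at least 2-fold higher in the lateral prostate in OBP-801 RNA. No share of all probes at least 2-fold higher in the lateral prostate in OBP-801 RNA is given beside it. Without it the 90% cannot be set against the 85.6% of the ventral probes, and their difference was not tested.

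**Figure D2:**
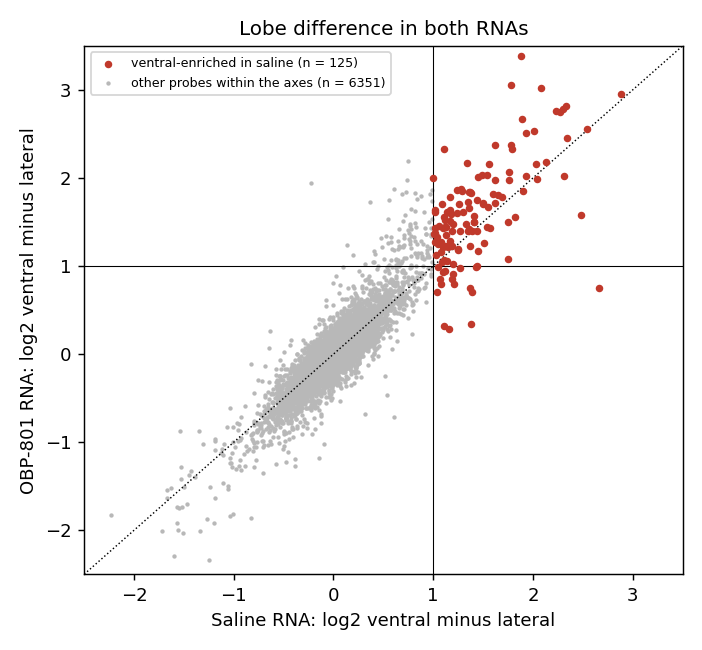
Log2 lobe difference (ventral minus lateral) of each probe in OBP-801 RNA (vertical axis) against saline RNA (horizontal axis). Red points are the 125 ventral-enriched probes and grey points the other probes with at least 100 units in ventral saline RNA, with 3 of them outside the axes. Solid lines mark 2-fold and the dotted line equal differences. Of the red points 107 lie above the horizontal 2-fold line and 88 above the dotted line.

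The ratio of OBP-801 over saline was computed within each array on a scale with an offset of 50 units and a loess correction of the dye balance by brightness. The offset pulls the ratios of dim probes towards 1. The saline signal of each probe is part of both this ratio and the rule, so the following is a description. In the ventral prostate, OBP-801 RNA had at least 2-fold more signal than saline RNA for 2 of the 125 probes and at least 2-fold less for 5. Among the comparison probes, these shares were 0.71% and 0.37%. On the lateral array, 1 of the 125 was higher by that measure and 7 were lower, beside 0.494% and 0.849% of the comparison probes. Over all probes detected in at least 1 channel, 0.391% were higher and 0.146% lower in the ventral prostate, and 0.375% and 0.375% in the lateral prostate. None of the 125 was at least 2-fold higher in one lobe and at least 2-fold lower in the other.

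Small ratios below 1 were common among the ventral-enriched probes in both lobes. In the ventral prostate, 98 of the 125 (78.4%) had a log2 ratio below 0, beside 50.1% of the comparison probes. The lateral array had 101 (80.8%), beside 51.5%. The median log2 ratio was -0.29 in each lobe, while the comparison probes had medians of 0.00 and -0.01. Most of the single ratios were small, with 93 of the 125 (ventral) and 97 (lateral) within 1.5-fold of no change. At 1.5-fold, 4 of the 125 were higher and 28 lower in the ventral prostate, beside 4.31% and 4.06% of the comparison probes. On the lateral array 3 were higher and 25 lower, beside 3.63% and 4.48%.

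The saline signal of each lobe enters both the rule and the ratio of that lobe, and the part of the choice of probes in these counts was not tested. The log2 ratio was below 0 in both lobes for 90 of the 125 probes and above 0 in both for 16, beside 43.7% and 42.1% of the comparison probes. It was below 0 in the ventral and above 0 in the lateral prostate for 8, and the reverse for 11. Both arrays had the same dye orientation, so a preference of a probe for a dye would enter both ratios with the same sign, and its part in these counts was not tested.

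The low ratios were not limited to one range of brightness in ventral saline RNA. Among the 32 dimmest of the 125 probes, with 101 to 149 units in ventral saline RNA, 28 had a ventral log2 ratio below 0 and 27 a lateral one. Among the 31 brightest, with 507 to 7463 units, the counts were 25 and 26, and the median log2 ratios were -0.40 (ventral) and -0.47 (lateral). All probes in that range of ventral saline signal had medians of -0.02 (ventral) and -0.04 (lateral). They were not matched to the 125 in lateral signal, and the rule selects probes with a lower lateral signal. In the 2 middle groups of 31 probes each, 22 and 23 ventral ratios and 23 and 25 lateral ratios were below 0.

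The processing sets the position of 0. With median centring in place of loess, the medians of the 125 probes were 0.18 (ventral) and -0.04 (lateral). The medians of the comparison probes then stood at 0.52 and 0.48, above those of the ventral-enriched probes. Median centring does not correct the dye balance by brightness, and the 125 had lower median signals than the comparison probes. The part of brightness in this gap was not tested. In the authors' deposited table of log2 ratios, which lists all 125 probes on both arrays, the medians were -0.41 (ventral) and -0.53 (lateral), beside -0.02 and -0.04 for the comparison probes it lists. By the authors' deposited table, 14 of the 125 were at least 2-fold lower on the ventral array and 33 on the lateral array, beside 0.803% and 1.93% of those comparison probes. On each array 2 of the 125 were at least 2-fold higher in the authors' deposited table, beside 0.973% (ventral) and 0.757% (lateral).

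**Figure D3:**
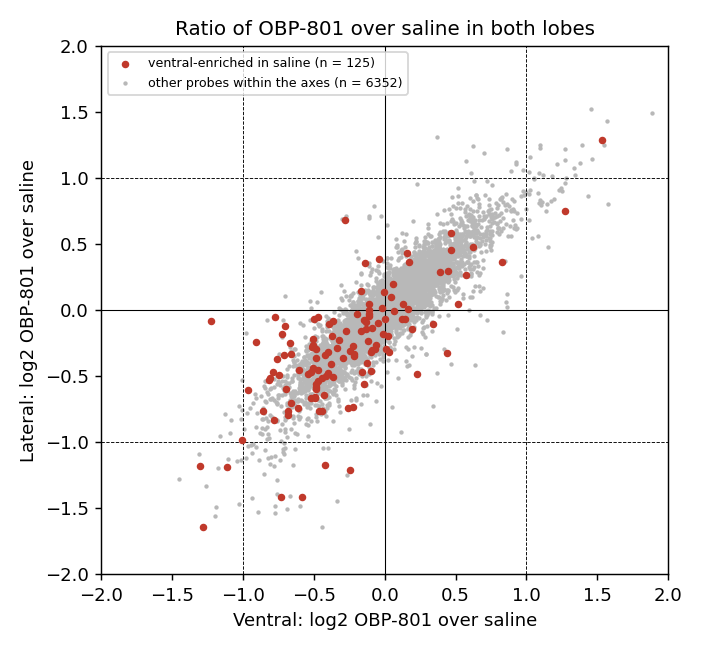
Log2 ratio of OBP-801 over saline in the lateral prostate (vertical axis) against the ventral prostate (horizontal axis), with offset and loess. Red points are the 125 ventral-enriched probes and grey points the other probes with at least 100 units in ventral saline RNA, with 2 of them outside the axes. Dashed lines mark 2-fold. Both ratios are below 0 for 90 of the 125 red points and above 0 for 16.

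The highest ratio among the ventral-enriched probes belonged to ENSRNOG00000014099. In the ventral lobe it had 2792 net units in OBP-801 RNA, against 427 units in saline RNA. Its lateral signals were 752 units in OBP-801 RNA, against 132 units in saline RNA. With the offset and loess these signals corresponded to a higher level with OBP-801 by 2.90-fold (ventral) and 2.44-fold (lateral), and it was the only one of the 125 at least 2-fold higher in both. The lobe difference was 3.28-fold in OBP-801 RNA and 3.07-fold in saline RNA, so the treated and untreated signals stood about equally far apart in both lobes.

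ENSRNOG00000020380 was the other probe at least 2-fold higher with OBP-801 in either lobe on the scale with offset and loess. In the ventral lobe it had 1065 units in OBP-801 RNA, against 186 units in saline RNA, and was 2.42-fold higher on that scale. The lateral lobe had 239 units in OBP-801 RNA, against 57.3 units in saline RNA, and was 1.68-fold higher on that scale. Its lobe difference was 3.93-fold in OBP-801 RNA and 3.08-fold in saline RNA.

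The lowest ratio averaged over both lobes belonged to ENSRNOG00000008816, which was also the brightest of the 15 probes at least 4-fold enriched in the ventral lobe. Ventral signals were 2801 units in OBP-801 RNA, against 3235 units in saline RNA. Lateral signals were 429 units in OBP-801 RNA, against 763 units in saline RNA. After normalization it was lower with OBP-801 by 2.44-fold (ventral) and 3.13-fold (lateral), larger decreases than the net signals show because the Cy3 signals of most probes exceeded the Cy5 signals. Its lobe difference was 5.77-fold in OBP-801 RNA and 4.02-fold in saline RNA.

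ENSRNOG00000013578 had 223 ventral units in OBP-801 RNA, against 323 units in saline RNA. Its lateral signals were 44.1 units in OBP-801 RNA, against 104 units in saline RNA. With the offset and loess it was lower with OBP-801 by 2.47-fold (ventral) and 2.27-fold (lateral). Its lobe difference was 4.47-fold in OBP-801 RNA and 2.95-fold in saline RNA. For both of these probes the signal with OBP-801 was below the saline signal in each lobe even before the dye balance was corrected.

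In all, 9 of the 125 probes were at least 2-fold lower with OBP-801 in at least 1 lobe, and 3 in both. Of the comparison probes, 1% were in at least 1 lobe and 0.216% in both. The 9 probes had a median net signal of 896 units in ventral saline RNA, on a scale whose offset shrinks the ratios of dim probes. The 33 probes at least 2-fold lower in the lateral prostate by the authors' deposited table had a median of 168 units. Of the 9, 8 were again at least 2-fold higher in the ventral lobe in OBP-801 RNA. On the scale with the offset, 4 passed 2-fold only in the lateral prostate. One had 5723 ventral and 975 lateral units in OBP-801 RNA, against 4425 and 1363 units in saline RNA, and its decrease was 1.67-fold (ventral) and 2.66-fold (lateral). Another had 1602 and 353 units in OBP-801 RNA, against 1153 and 545 units in saline RNA, and its lateral decrease was 2.67-fold. For the remaining 2 the decrease was 1.34-fold and 1.18-fold in the ventral lobe, and 2.26-fold and 2.32-fold in the lateral lobe. The lobe difference of these 4 probes was between 4.01-fold and 5.19-fold in OBP-801 RNA and between 2.00-fold and 3.08-fold in saline RNA.

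One of the 9 was at least 2-fold lower in the ventral prostate with little difference in the lateral prostate. It is the dim probe with the second largest saline lobe difference described above, with 49.9 units in ventral OBP-801 RNA, against 110 units in ventral saline RNA. The lateral lobe gave 26.1 units in OBP-801 RNA, against 16.4 units in saline RNA. On the scale with the offset its decrease was 2.34-fold (ventral) and 1.06-fold (lateral).

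The lobe difference also varied with the position of a probe on the array. The spots lie in 24 blocks. The median lobe difference of the comparison probes ran from -0.19 to 0.12 over the blocks in OBP-801 RNA and from -0.24 to 0.16 in saline RNA. In blocks 1 to 6 the median in saline RNA was -0.15 and 1.21% of the probes were ventral-enriched. In blocks 19 to 24 the median was 0.14 and the share was 2.68%. A single block, block 24, held 13 of the 125 probes, and block 13 held 1. The share did not follow the block median throughout, since blocks 14, 15 and 16 had shares of 2.60%, 2.86% and 3.45% with saline medians of -0.01, 0.00 and -0.05.

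When each block was centred on its own median, 121 probes met the rule, of which 115 were among the 125. Of the 125, 105 were then at least 2-fold higher in the ventral lobe in OBP-801 RNA, against 107 without it. This centring was chosen after the block values were seen. The share that was again at least 2-fold in OBP-801 RNA was 17 of 19 in blocks 1 to 6 and 27 of 31 in blocks 7 to 12. It was 24 of 30 in blocks 13 to 18 and 39 of 45 in blocks 19 to 24. No shares of the comparison probes in these groups of blocks are given beside them.

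**Figure D4:**
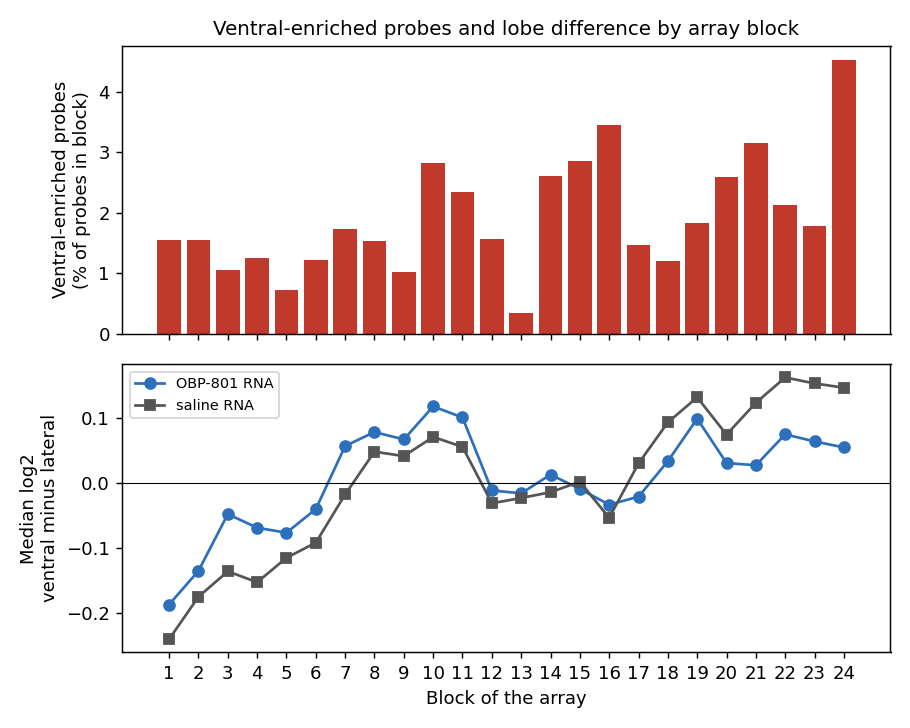
Ventral-enriched probes by block of the array (horizontal axis). The bars give their share of the probes with at least 100 units in ventral saline RNA, in percent, and the lines the median log2 lobe difference of these probes in OBP-801 RNA (circles) and saline RNA (squares). The saline median runs from -0.24 in block 1 to 0.16 in block 22, and block 24 has the highest share, 4.53%.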

How the data were processed

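Spot and local background intensity were deposited as medians per wavelength, fitted across 3 scanner gains by least squares per the file headers, and neither background-subtracted nor normalized. Amino allyl RNA was coupled to Cy5 or Cy3, per the labels' protocols. The sources used here name no image software. The authors' deposited log2 values equalled log2 of net Cy3 over net Cy5 after subtraction of 1.08 (ventral) or 1.00 (lateral), with residual SDs of 1.7e-05 and 2.1e-05.

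Net signals were spot medians less the mean of 5808 blank spots with 5% left out at each end, with a floor of 8 units before log2. Ratios of OBP-801 over saline used limma 3.58.1 in R 4.3.3 (normexp, offset 50, no local background, loess with control spots at weight 0). A channel counted as detected at 2 blank SDs. Both calculations were tested on simulated data with 200 changed probes. The rest used Python 3.11.15 (pandas 2.3.3, scipy 1.17.1, numpy 2.4.6, matplotlib 3.10.9).

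The probes and all 26 gene lists were chosen with earlier results of these data known. By the rule for named genes, these were to be the most enriched, brightest and most changed ones with a symbol. No ID had a symbol, so no list was evaluated and 4 IDs stand in their place, those with the 2 highest and 2 lowest mean log2 ratios over the lobes. Probes given without an ID were chosen after their values were seen. Alternatives were another background, centring, floor, filter, fold and the authors' table.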

Additional observations from a re-analysis of the deposited data

How the results depend on the processing

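No paired analysis was possible because the design has 1 array per lobe. Of 62 values under an alternative, 25 stayed within 1.5 times the count reported, or, for a median, within the largest SD of the positive control spots. The 125 ventral-enriched probes became 70 with normexp and Aquantile (69 of them among the 125), 492 with the local background subtracted (66 among the 125), 340 at 1.5-fold, 34 at 3-fold, 287 with a minimum of 30 units and 44 with a minimum of 300 units. Of the 125, 107 were at least 2-fold in OBP-801 RNA. That number was 71 with normexp and Aquantile and 89 to 114 under the other alternatives with a 2-fold limit. At other limits it was 58 (3-fold) and 122 (1.5-fold). Of the comparison probes, 3.32% reached 2-fold in the main setting and 2.16% with normexp and Aquantile, while 1.17% reached 3-fold and 7.15% 1.5-fold. The median lobe difference of the 125 in OBP-801 RNA, 1.52, was 1.06 with normexp and Aquantile, 1.37 with the local background subtracted and 1.65 with centring on all gene probes. The counts of probes at least 2-fold different with OBP-801 were 2 higher and 5 lower on the ventral array, then 1 and 7 on the lateral array. They became 2, 14, 2 and 32 with the blank mean subtracted, 5, 4, 2 and 4 with normexp after the local background, 6, 1, 3 and 1 with median centring, and 2, 14, 2 and 33 by the authors' table. With median centring, only 6.58% (ventral) and 8.77% (lateral) of the comparison probes had a log2 ratio below 0. Its counts are therefore not a result about the 125 alone. Except for the authors' table, no shares of the comparison probes at 2-fold are given for these alternatives. Counts without such a share cannot be read as a result about the 125. The limit of 1.5-fold gave 4, 28, 3 and 25, and that of 3-fold 0, 0, 0 and 1. The ventral median log2 ratio of -0.29 reversed to 0.18 with median centring, which moved the comparison probes to 0.52. The lateral median of -0.29 was -0.49 with the blank mean subtracted, -0.19 with normexp after the local background, -0.043 with median centring (comparison probes 0.48) and -0.53 by the authors' table. The offset of normexp draws dim probes together by construction. The cause of the other changes was not tested. Of the 125 probes, 9 were under 10 blank SDs in lateral OBP-801 RNA.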
